A study of Populus tremula x Populus alba with 4 samples.

Results

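Condensed tannins, also called proanthocyanidins, are polymers of flavan-3-ol units and a major class of phenolic compound in poplar bark and leaves, where they are linked to defence. Their late pathway starts with dihydroflavonol reductase (DFR), which makes leucoanthocyanidins. From there leucoanthocyanidin reductase (LAR) makes catechin directly, while anthocyanidin synthase (ANS) followed by anthocyanidin reductase (ANR) makes epicatechin, so that LAR and ANR complete different routes to the tannin units. The 8 genes described here were picked out by their IDs, as DFR1 (Potri.002G033600.1), DFR2 (Potri.005G229500.1), the ANS genes Potri.003G119100.1 and Potri.001G113100.1, LAR1 (Potri.008G116500.1), LAR2 (Potri.010G129800.1), LAR3 (Potri.015G050200.1) and ANR1 (Potri.004G030700.1). All 8 were found among the 41335 genes listed in the files, and all 8 passed the filter on low counts. The names follow common usage for these gene models, and no annotation was used here to check them.

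The 4 libraries were made from bark, the tissue outside the vascular cambium, of a hybrid poplar, Populus tremula x Populus alba, of the clone INRA 717-1B4. There were 2 libraries from MIR15 transgenic plants and 2 from wild-type (WT) plants of the same clone, which the labels call biological replicates. Plants were started in sterile culture and then grown in soil at 24°C with 16 h of light a day. The labels give neither the promoter of the MIR15 construct, nor its target, nor the plants' age, nor the number of transgenic lines sampled. The p-values below therefore set the genotype difference against the spread between these samples, and do not reach to MIR15 lines in general. Defining markers of bark tissues were not checked, because no annotation was used here.

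Library totals were 68453851 to 82789893 reads, and a late tannin gene drew between 487 and 45430 reads in a library. Levels are given in CPM, the total gene reads scaled to the library's total. No more than 0.0772% of any of these genes' reads matched more than 1 place, so near-identical copies bear little on the values. Transcript lengths were not used, so levels are compared between libraries and not between genes. In bulk tissue, fewer cells of a type and less RNA per cell cannot be told apart. Before any comparison of genotypes, the WT libraries have to be set apart from each other: all 8 genes were more than 2-fold higher in WT replicate 1 than in WT replicate 2.

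Reads of all 8 late tannin genes were found in every bark library, and together they took between 0.0644% and 0.165% of all reads. Their summed level was 1239 and 971 CPM in the MIR15 libraries, and 1650 and 644 CPM in the WT libraries. The summed MIR15 mean was 1105 ± 190 CPM (SD, n = 2) and the WT mean 1147 ± 712 CPM (SD, n = 2). The means of the genotypes thus lay much closer to each other than the WT libraries did.

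DFR makes the leucoanthocyanidins that both routes draw on. DFR1 had 201 and 190 CPM in MIR15 bark, against 302 and 122 CPM in WT bark. Its fold change, MIR15 over WT, was 0.929 (95% interval 0.503 to 1.72), and the quasi-likelihood test of edgeR gave an adjusted p of 1.00. Both MIR15 libraries fell inside the WT range, and they differed from each other by 1.06-fold where the WT libraries differed by 2.47-fold. DFR2 had 62.0 and 48.9 CPM in MIR15, against 99.6 and 30.3 CPM in WT. Its fold change was 0.860 (95% interval 0.397 to 1.86), the lowest of the 8, also with an adjusted p of 1.00 in edgeR. DFR2 was the gene in which the WT libraries differed most, by 3.28-fold, with a counting interval of 3.14 to 3.44.

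ANS, which oxidises the leucoanthocyanidins that DFR makes, was present as a pair of genes. Potri.001G113100 had 420.0 and 306 CPM in MIR15 libraries, against 549 and 199 CPM in WT libraries. Potri.003G119100 had 54.9 and 34.8 CPM in MIR15, against 72.8 and 26.3 CPM in WT. In each of these genes the WT libraries formed the upper and lower ends and the MIR15 libraries lay between them. The fold changes were 0.980 (95% interval 0.483 to 1.99) for Potri.001G113100 and 0.914 (0.443 to 1.89) for Potri.003G119100, both with an adjusted p of 1.00 in edgeR. The ratio between them moved little: Potri.001G113100 had 7.65 and 8.78 reads for each read of Potri.003G119100 in MIR15, and 7.53 and 7.58 in WT.

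The LAR genes, whose enzymes make catechin, were the members with edgeR fold changes above 1 when all 4 libraries were used. As a difference of mean log2 CPM, DFR1 (0.0241), DFR2 (0.00152) and Potri.001G113100 (0.117) were above 0 too, while Potri.003G119100 and ANR1 were below. LAR1 had 80.3 and 73.7 CPM in MIR15 bark, against 105 and 37.0 CPM in WT bark, a fold change of 1.09 (95% interval 0.555 to 2.16). LAR2 had 206 and 133 CPM in MIR15, against 223 and 93.5 CPM in WT, a fold change of 1.08 (95% interval 0.562 to 2.08). LAR3 had 11.0 and 9.18 CPM in MIR15, against 13.2 and 6.32 CPM in WT, a fold change of 1.04 (95% interval 0.599 to 1.82). None of the 3 passed edgeR's test, with an adjusted p of 1.00 each, and in each the MIR15 libraries lay inside the WT range.

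ANR1, which turns anthocyanidins into epicatechin, had 205 and 175 CPM in MIR15, against 286 and 129 CPM in WT. Its fold change was 0.924 (95% interval 0.525 to 1.63), with an adjusted p of 1.00 in edgeR. Its MIR15 libraries too lay between the WT libraries, which differed by 2.22-fold.

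**Figure D1:**
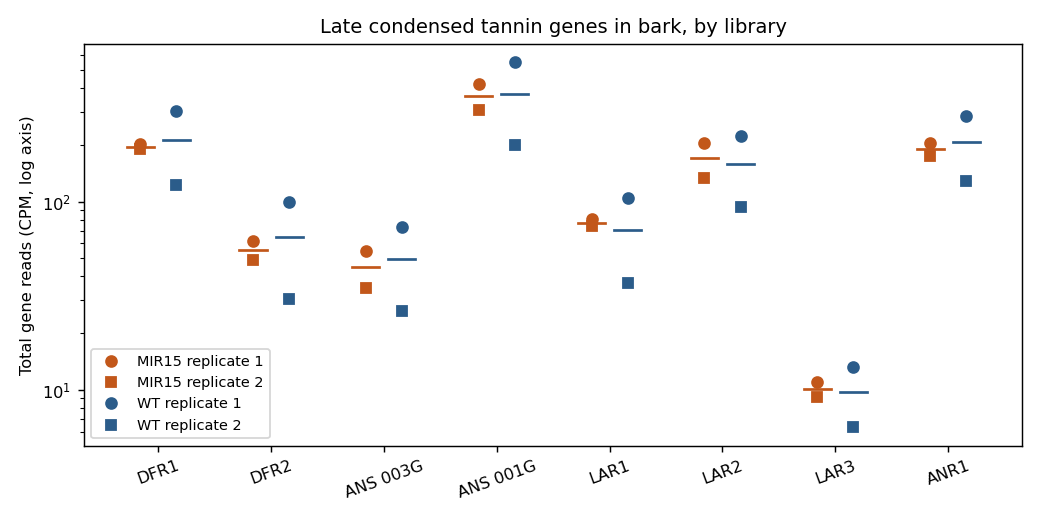
Total gene reads in CPM, on a log axis, of the 8 late tannin genes in each library, with MIR15 left of WT and a bar at each mean of 2 libraries. For every gene the circles and squares of MIR15 lie between those of WT, from DFR1 with 201 and 190 CPM inside 302 and 122 CPM to LAR3 with 11.0 and 9.18 CPM inside 13.2 and 6.32 CPM.

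Between genotypes, edgeR called 0 of the 8 genes at an adjusted p under 0.05, and at an unadjusted p under 0.05 the count was also 0. Of all 30975 genes tested, 0.00323% were called, which is 1 gene, and 2.47% had an unadjusted p under 0.05. DESeq2 called 0 of the 8, with 0 at an unadjusted p under 0.05, and 0.0408% of all genes with an adjusted p. The median log2 fold change of the 8 genes was -0.07, with 3 values above 0 and 5 below, and over all tested genes it was -0.0008. The 95% interval included a fold of 1 for each of the 8 genes, and it was narrowest on the log2 scale for LAR3 (0.599 to 1.82) and widest for DFR2 (0.397 to 1.86), so a change within its own interval is not excluded for any of them. The signs also rest on how libraries are averaged: as a difference of mean log2 CPM, 6 of the 8 genes were above 0 and 2 below.

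The values depended on single WT libraries. Without WT replicate 1, all 8 genes were higher in MIR15, with a median log2 fold change of 0.85 and values from 0.60 for ANR1 to 1.09 for LAR1. Without WT replicate 2, all 8 were lower in MIR15, with a median of -0.59 and values from -0.84 for DFR2 to -0.38 for LAR3. No late tannin gene was called in edgeR in either setting, although 8 had an unadjusted p under 0.05 without WT replicate 1 and 5 without WT replicate 2; the lone WT library was then assumed to vary as the MIR15 libraries did. The median was -0.25 without MIR15 replicate 1 and 0.19 without MIR15 replicate 2.

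**Figure D2:**
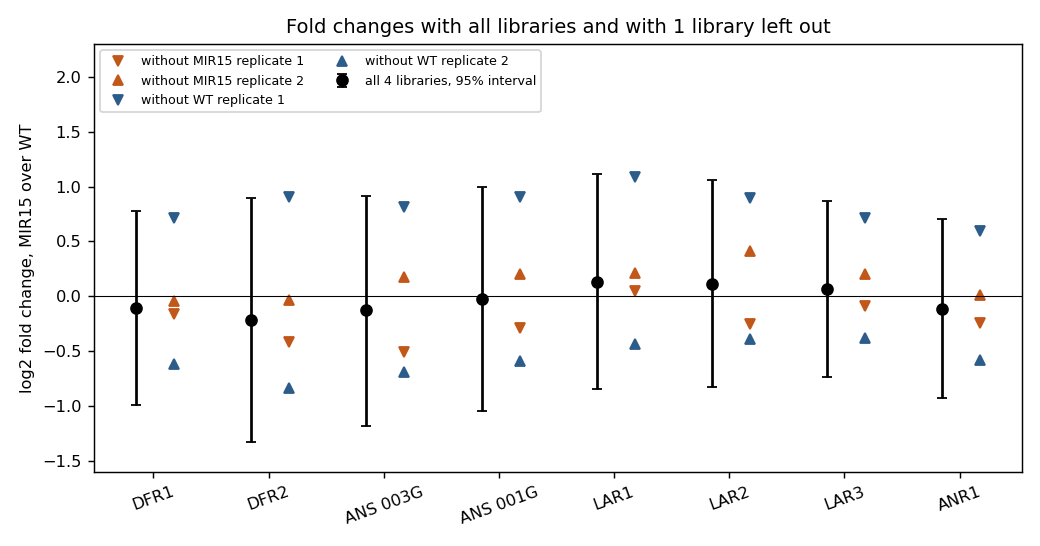
Log2 fold change, MIR15 over WT, of the 8 genes with all 4 libraries (black, bars are 95% intervals from edgeR) and with 1 library left out (triangles). Every interval includes 0, and leaving out WT replicate 1 puts all 8 values at 0.60 or above while leaving out WT replicate 2 puts all 8 at -0.38 or below.

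The genes moved together across libraries. In all 8, the order from high to low was WT replicate 1, MIR15 replicate 1, MIR15 replicate 2 and WT replicate 2, an order that 4.35% of all tested genes showed. The MIR15 libraries lay between the WT libraries in all 8, and in 18.1% of all tested genes. With unique gene reads in place of total gene reads, the order was the same in 8 of 8 genes. These genes share their libraries, so the 8 are not 8 independent observations of a difference between plants.

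Within MIR15, all 8 genes were higher in replicate 1, where 46.1% of all tested genes were. The folds ran from 1.06 for DFR1 to 1.58 for Potri.003G119100, with a median of 1.23. LAR2 differed by 1.54-fold between the MIR15 libraries and LAR1 by 1.09-fold, so that genes for the same step were not equally spread.

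Within WT, the 8 genes were again higher in replicate 1, and by larger folds, from 2.08 (LAR3) to 3.28 (DFR2), with a median of 2.61. A gene was at least 2-fold higher in WT replicate 1 in 3.11% of all tested genes, and higher by any amount in 46.0%. The lowest of these folds, that of LAR3, had a counting interval of 1.87 to 2.32, so the difference was larger than counting error. By step, the summed reads of the WT libraries differed by 2.63-fold for DFR, 2.76-fold for ANS, 2.49-fold for LAR and 2.22-fold for ANR1. LAR1 was here more widely spread than LAR2, by 2.83-fold against 2.39-fold. Each pair of replicates is 1 library against 1 library, so these differences carry no test, and whether they stem from the plants, the sampling or the libraries was not tested.

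**Figure D3:**
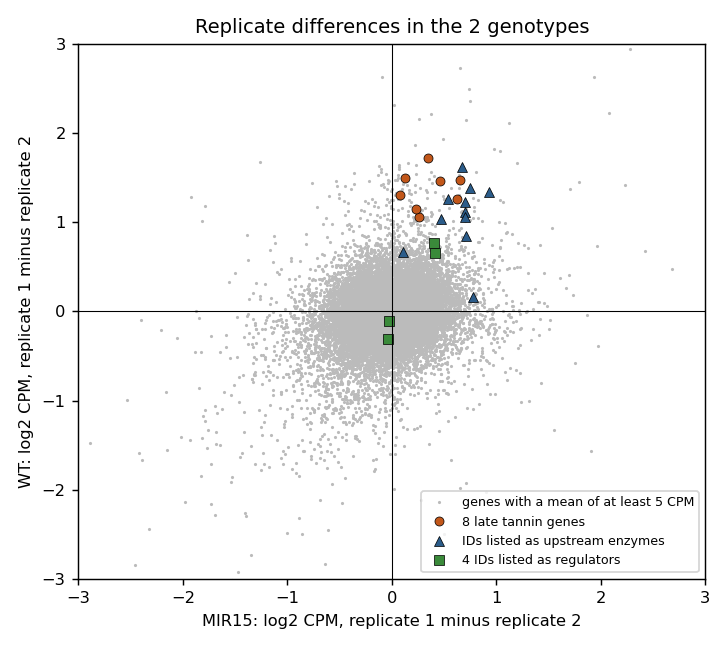
Replicate 1 minus replicate 2 in log2 CPM within MIR15 (horizontal) and within WT (vertical), for all tested genes that average 5 CPM or more and have reads in every library (grey, values beyond 3 in size are not drawn) and for the listed genes (coloured). The 8 late tannin genes all lie above 1 on the vertical axis, while on the horizontal axis they run from near 0 to below 0.7.

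The balance of the LAR and ANR routes was read as the ratio of reads within a library, in which library size cancels. Because transcripts of unlike length draw unlike numbers of reads, its absolute value says nothing of molecules, and the text compares it between libraries only. The 3 LAR genes together had 1.45 and 1.24 reads per ANR1 read in MIR15 bark, against 1.19 and 1.06 in WT bark. The exact 95% counting intervals were 1.42 to 1.48 and 1.21 to 1.27 in MIR15, and 1.17 to 1.22 and 1.04 to 1.09 in WT. Both MIR15 libraries therefore stood above both WT libraries, although the lower MIR15 interval and the upper WT interval overlap. The mean ratio was 1.34 ± 0.151 in MIR15 and 1.13 ± 0.0926 in WT (SD, n = 2 each), a difference of 0.25 on the log2 scale or 1.19-fold. The exact permutation test over samples, two-sided, gave p = 0.33, which is the smallest that 2 libraries against 2 allow.

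The LAR genes did not contribute alike. LAR1 had 0.393 and 0.422 reads per ANR1 read in MIR15, against 0.367 and 0.288 in WT, and its groups did not overlap. LAR3 had 0.0537 and 0.0525 in MIR15, against 0.0461 and 0.0491 in WT, also without overlap, though the counting intervals of MIR15 replicate 2 (0.0485 to 0.0569) and WT replicate 2 (0.0448 to 0.0538) overlap. LAR2 had 1.01 and 0.763 in MIR15, against 0.782 and 0.727 in WT, so that its groups overlapped. The mean ratio was 0.884 in MIR15 and 0.754 in WT for LAR2, and 0.407 and 0.327 for LAR1. For LAR3 it was 0.05313 and 0.04765. The largest part of the difference in the summed ratio thus came from LAR2, the gene whose groups overlapped, and LAR3 added little. With a library left out, the summed LAR to ANR1 difference on the log2 scale ran from 0.13 without MIR15 replicate 1 to 0.36 without MIR15 replicate 2. Its sign could not turn there, because the groups of the summed ratio did not overlap, so these values add no support.

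**Figure D4:**
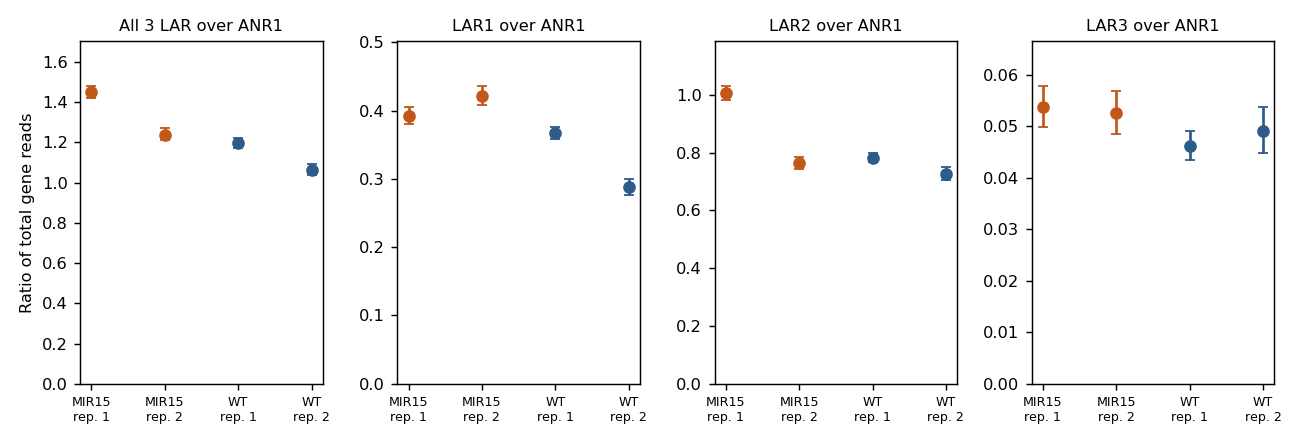
Reads of the LAR genes, summed and singly, per ANR1 read in each library, with exact 95% counting intervals. The summed ratio is 1.45 and 1.24 in MIR15 and 1.19 and 1.06 in WT, and the LAR2 panel is the one in which the genotypes overlap.

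Of 10 ratios between members or steps, 5 had groups that did not overlap. Each gave the same exact permutation p of 0.33, the smallest possible here, and a Benjamini-Hochberg adjusted value of 0.666. For single genes, the genotypes did not overlap in CPM in 25.1% of all genes tested, so such separation was common in these libraries. The 10 ratios share genes and libraries, with LAR reads in 4 of the 5 and ANR1 reads in 3, so the 5 are not independent and the count is a description. Besides the 3 with LAR over ANR1 given above, these were the ratio of the ANS genes and that of ANS to LAR. For that of ANS to LAR, ANS had 1.60 and 1.58 reads per LAR read in MIR15, against 1.82 and 1.65 in WT. DFR1 had 3.24 and 3.89 reads per DFR2 read in MIR15, against 3.03 and 4.03 in WT, and these overlapped. In both genotypes that ratio was higher in replicate 2, the library with less of both genes.

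Genes listed for the earlier flavonoid steps followed a like course. This list of 11 IDs, for chalcone synthase, chalcone isomerase, flavanone hydroxylase and the hydroxylases of the flavonoid B ring, was compiled from memory of the gene models without an annotation, so its members are given by ID alone. Of the 11, edgeR called 0, also 0 at an unadjusted p under 0.05, with 8 log2 fold changes above 0, 3 below and a median of 0.08. Of all tested genes, 49.8% were above 0. Some of these signs turned when the difference of mean log2 CPM was used. All 11 were higher in replicate 1 within MIR15, by a median of 1.63-fold, and within WT, by a median of 2.17-fold. In some of these IDs many reads matched more than 1 place, up to 61.7% for Potri.005G113900.1, so the 11 may share reads. With unique gene reads, the order of the libraries was the same in each ID. In 8 of the 11 the libraries stood in the same order as in the late tannin genes. The ID with most reads, Potri.014G145100.1, had 299 and 157 CPM in MIR15, against 301 and 119 CPM in WT. The ID with the smallest p, Potri.003G176900.1, had 127 and 78.0 CPM in MIR15, against 122 and 58.4 CPM in WT (unadjusted p = 0.604 in edgeR), and here MIR15 replicate 1 was the highest library. Potri.009G069100.1, chosen after its values were seen, had 112 and 65.1 CPM in MIR15, against 92.4 and 82.6 CPM in WT. Its WT difference was small, at 1.12-fold with a counting interval of 1.08 to 1.16.

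The 4 IDs listed in the same way for transcription factors that act on tannin genes were mixed. Of the 4, edgeR called 0, also 0 at an unadjusted p under 0.05. All 4 log2 fold changes were below 0, with a median of -0.07, where 49.8% of all tested genes were above 0. The 2 nearest 0 were -0.016 and -0.015. As a difference of mean log2 CPM, the ID at -0.016 was above 0 (0.00481). Potri.004G088100.1 and Potri.005G208600.1, named after their values were seen, stood in the same library order as the late tannin genes, with WT replicate 1 higher than replicate 2 by 1.71-fold and 1.58-fold. The other two did not. Potri.006G221800.1, with most reads of the 4, had 41.1 and 42.0 CPM in MIR15, against 44.0 and 47.3 CPM in WT. Potri.002G173900.1, with the smallest p, had 3.96 and 4.06 CPM in MIR15, against 4.82 and 5.98 CPM in WT, a log2 difference of -0.41 ± 0.24 (SE), for which edgeR gave an unadjusted p of 0.123 and an adjusted p of 1.00. In these last 2 IDs both MIR15 libraries lay below both WT libraries; in 25.1% of all tested genes the genotypes did not overlap. Neither of these IDs was higher in WT replicate 1 than in replicate 2.

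**Figure D5:**
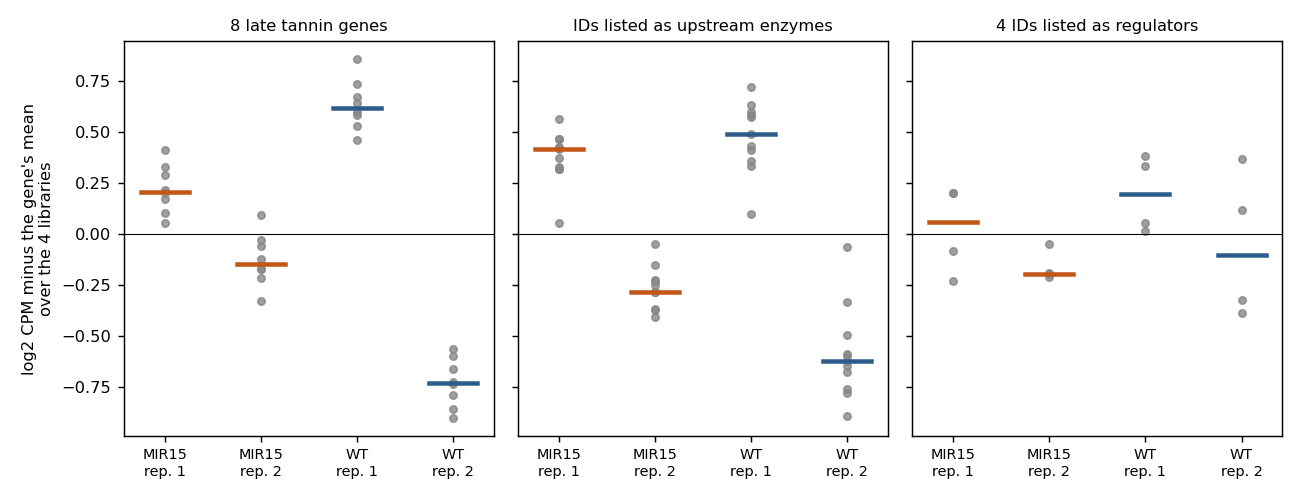
Log2 CPM of each gene minus its own mean over the 4 libraries (points) with the median of each list (bars), for the late tannin genes, the IDs listed as upstream enzymes and the IDs listed as regulators. The medians of the late tannin genes are 0.21 and -0.15 in MIR15 and 0.62 and -0.73 in WT, and those of the regulator IDs stay between -0.20 and 0.20.

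The likeness of other genes was measured as the root-mean-square difference between a gene's log2 CPM, centred on its own mean over the 4 libraries, and the median of the 8 late tannin genes so centred. Of 20089 other tested genes that average 5 CPM or more, the 3 closest were Potri.006G027000.1 (0.0347), Potri.002G095900.1 (0.0680) and Potri.005G113900.1 (0.0746). Potri.006G027000.1 had 77.6 and 58.1 CPM in MIR15, against 104 and 41.1 CPM in WT. Potri.002G095900.1 had 23.3 and 16.5 CPM in MIR15, against 29.7 and 12.4 CPM in WT. Potri.005G113900.1 is on the list of upstream IDs and had 167 and 115 CPM in MIR15, against 201 and 83.9 CPM in WT; 61.7% of its reads matched more than 1 place. The members themselves lay between 0.0577, for Potri.001G113100, and 0.147, for LAR1, from their common median, and 41 other genes lay as close as LAR1 or closer. The members set this median and the other genes did not, so the distances of the members and of other genes are not a like comparison. With 4 libraries, such closeness describes these libraries and no more.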

How the data were processed

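Bark RNA of 2 MIR15 and 2 WT samples was sequenced as paired reads of 100 bases, per the labels. Per the file headers, the authors deposited counts of unique and of total gene reads made with CLC, and a DESeq normalised signal, which equals the deposited total gene reads times 1 constant per library (0.898 to 1.10). The build, annotation and CLC settings are not stated in the labels or headers used here. Groups and replicate numbers come from the sample titles; the MIR15 file headers carry other numbers.

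The genotypes were compared on total gene reads in edgeR 4.0.16 under R 4.3.3 (filterByExpr, TMM factors of 0.983 to 1.02, quasi-likelihood F test, two-sided, genotype as sole term). Of 41335 genes, 30975 were tested, and p-values were adjusted over all of them by Benjamini-Hochberg. Levels are CPM of the library total without TMM. The 95% intervals of fold changes come from the F statistic and its degrees of freedom, and those of read ratios are exact binomial and cover counting error only. The fit was tested on simulated data. The planted changes there were larger than any fold change of a late tannin gene here, so the power to find small changes was not tested. No 2 libraries agreed within sampling noise. Taken over 25930 genes, log2 levels of the MIR15 replicates lay 0.374 apart (root mean square), and those of the WT replicates 0.378. Across genotypes, MIR15 replicates 1 and 2 stood 0.298 and 0.308 from WT replicate 1, and 0.432 and 0.350 from WT replicate 2. Replicates of a genotype were thus not the most alike libraries, and the reason was not tested. Alternatives were unique reads, DESeq2 1.42.0, a replicate block, leaving out each library, other scalings (RLE, library size) and other filters (none, 5 CPM on average).

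The members and lists were chosen with earlier results of these data known. All 8 members are named; of each other list, any call, otherwise the ID with most reads and that with the smallest p; and the 3 genes closest in pattern. IDs named outside this rule are marked.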

Additional observations from a re-analysis of the deposited data

How the results depend on the processing

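No late tannin gene was called in any of the 11 alternatives. DESeq2, unique reads, both other scalings (RLE, library size) and both other filters (none, 5 CPM on average) kept the sign of all 8 log2 fold changes, with a median between -0.08 and -0.06. Over all genes, 1 call became 0 with the filter at 5 CPM on average (389 at an unadjusted p under 0.05 in edgeR), 0 in unique reads (768 in edgeR), 14 with DESeq2 and 120 in edgeR with a replicate block. Leaving out single libraries gave 0 to 8 calls over all genes and a median over the members from -0.59 to 0.85. By gene, those values ran from -0.62 to 0.71 for DFR1, -0.84 to 0.91 for DFR2, -0.69 to 0.81 for Potri.003G119100, -0.59 to 0.90 for Potri.001G113100, -0.44 to 1.09 for LAR1, -0.39 to 0.90 for LAR2, -0.38 to 0.71 for LAR3 and -0.58 to 0.60 for ANR1; the largest shifts were without a WT library. With the replicate block the signs of DFR1 (0.0424), DFR2 (0.0166), Potri.003G119100 (0.0155) and Potri.001G113100 (0.135) turned, and the median was 0.09. The difference of mean log2 CPM, which uses no block, lay close to these values. It was 0.0241 for DFR1, 0.00152 for DFR2, -0.000332 for Potri.003G119100 and 0.117 for Potri.001G113100. Why the signs turned was not tested. No label says that a number marks a shared origin, and with 2 pairs (correlation of same-number deviations 0.25) the samples were treated as unpaired. The LAR to ANR1 difference ran from 0.13 to 0.36 with 1 library left out and was 0.32 with LAR1 alone. Because the groups of the summed ratio did not overlap, leaving out a library could not turn its sign. The replicate block gave the same mean difference of 0.249 by construction, so neither setting tests the sign. The median replicate difference was 0.29 to 0.33 in MIR15 and 1.38 to 1.42 in WT on the log2 scale over total reads, unique reads and TMM.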
